A study of Glycine max with 12 samples.

Results

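The heat response of TL1 flower buds was described from 6 of the 12 RNA-seq libraries of the series, 3 at high temperature (HT, 40 °C by day and 34 °C at night) and 3 at normal temperature (NT, 28 °C by day and 22 °C at night). TL1 is the soybean cultivar Tianlong No. 1, a restorer line of cytoplasmic male sterility (CMS), and it carries no transgene. The other 6 libraries come from *GmMYB21a-OE2*, a TL1-derived line that overexpresses *GmMYB21a*, at the same HT and NT, and they are used below only for comparison. Plants grew in chambers, with heat from the beginning of flowering, and the length of heat before the buds were taken for RNA-seq is not stated. Buds were taken along the whole height of the plant, without a statement of whether each library pools these positions. *GmMYB21a-OE2* is a single transgenic line. Temperature was read from the library titles, because the treatment field names high temperature everywhere. Of 53808 genes in the count table, 3904 had no count in any TL1 library and 41422 had enough counts to be tested.

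Heat during flowering is known to harm male organs more than female ones. In the anther, the tapetum nourishes the developing pollen and supplies the precursors of sporopollenin, the polymer of the outer pollen wall, and mature pollen stores transcripts for the pollen tube. Plants also answer heat through heat stress transcription factors and chaperones, through abscisic acid, and through flavonoids, which act as antioxidants and as pollen pigments.

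Total counts lay between 33005026 and 39438384 in the HT libraries and between 32058303 and 35898096 in the NT libraries. Replicates correlated at 0.993 or more (Pearson's r of log2 CPM over the genes tested), and libraries of different temperature at 0.928 or less, so no library stood apart from its group. CPM denotes the count of a gene scaled to a common library size, in edgeR's CPM unit with TMM factors. The identifiers of floral organ, leaf, nodule and seed markers are not paired with gene names in the sources used here, so the tissue label was checked only through the tapetum and pollen genes described below, which were detected in all 3 NT libraries.

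Heat changed the level of a large share of the genes expressed in the bud, and more genes fell than rose. A differentially expressed gene (DEG) had to change by 1 or more on the log2 scale, in either direction, with an adjusted p-value below 0.05 (edgeR's quasi-likelihood test, Benjamini-Hochberg). With this rule 9635 genes were DEGs at HT relative to NT, 23.3% of those tested. Of these, 3543 were higher (8.55% of the genes tested) and 6092 were lower (14.7%), so 36.8% of the DEGs were higher (95% Wilson interval 35.8 to 37.7%, counting error only). The interval treats genes as independent and leaves out the spread between libraries, and without HT replicate 3 the share was 35.4%. The imbalance appeared with the fold threshold. At an adjusted p-value below 0.05 alone, 29476 genes (71.2%) differed, 14709 of them higher and 14767 lower. The median log2 fold change of all genes tested was 0.0012, and the middle 50% of genes lay between -0.57 and 0.48. The 5th percentile was -1.83 and the 95th was 1.27, so the tail of lower genes was the longer one. The 3 HT and 3 NT libraries did not overlap for 9490 of the 9635 DEGs, against 73.4% of all genes tested.

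**Figure D1:**
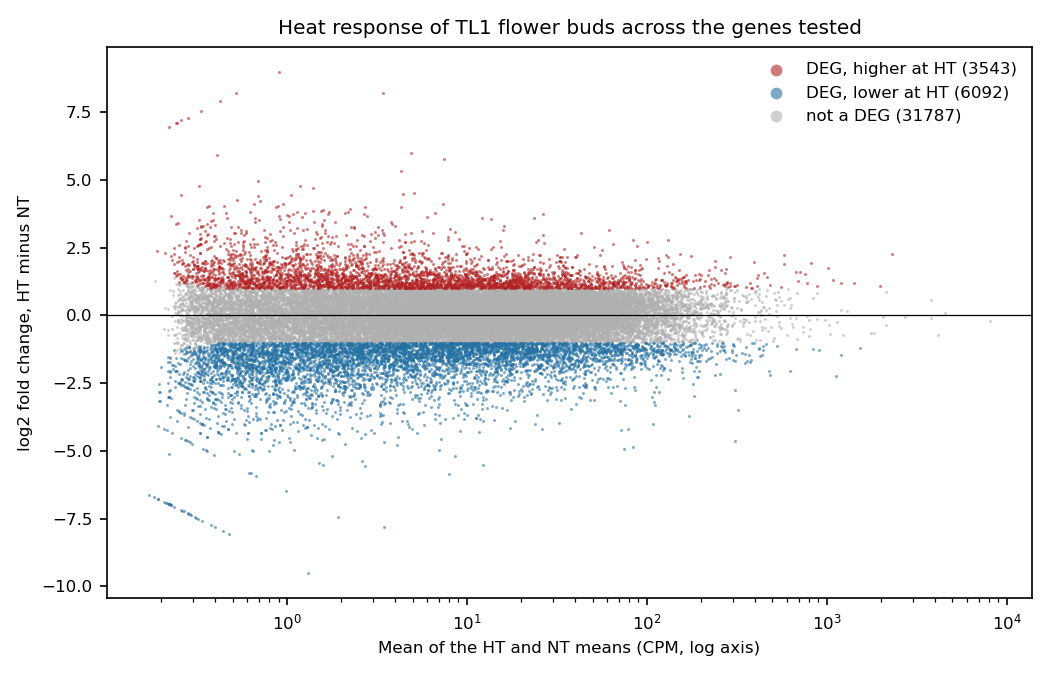
Log2 fold change of HT over NT (y axis) against the mean level of each gene (x axis, CPM on a log axis) for the 41422 genes tested in TL1. Red points are the 3543 DEGs higher at HT, blue points the 6092 lower, and grey points the other genes. The oblique rows at the far left are genes with a count near 0 at one temperature, whose fitted fold is not a measured size.

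Falls were also larger than rises. The median log2 fold change was 1.33 among the higher DEGs and -1.53 among the lower ones, and 10% of each group lay beyond 2.21 or -2.75. At least a 4-fold change was fitted for 518 higher and 1627 lower genes, 8-fold for 128 and 441, and 16-fold for 34 and 147. All 10 higher and all 33 lower genes fitted at 64-fold or more had at most 3 counts in each library of the other temperature. For these the data give a lower bound and not a size.

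DEGs were found at every level of expression but least often in the middle of the range. Between 10 and 30 CPM, 14% of genes were DEGs (median standard error 0.089 on the log2 scale), against 42.3% between 0.3 and 1 CPM (median standard error 0.43) and 35.2% between 300 and 1000 CPM (0.042). Lower genes outnumbered higher ones in each class below 1000 CPM. Among the 26 genes at 1000 CPM or more, 6 were higher and 3 lower, with log2 fold changes of all 26 between -2.25 and 2.27.

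**Figure D2:**
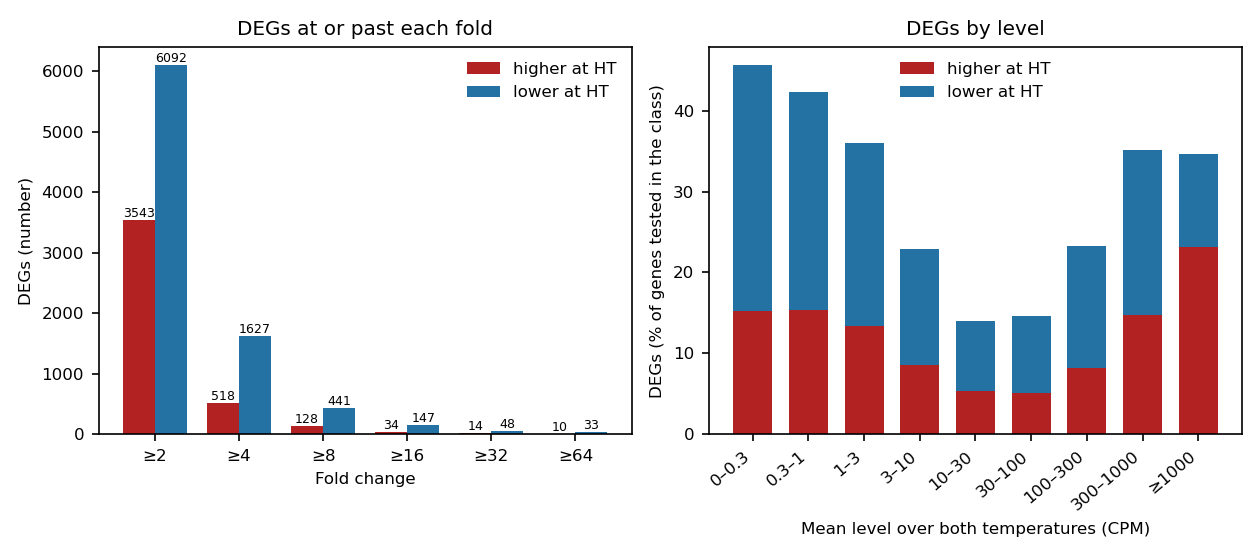
Left, number of TL1 DEGs at or past each fold change (red, higher at HT, with 3543 at 2-fold and 518 at 4-fold, and blue, lower at HT, with 6092 and 1627). Right, DEGs as a percentage of the genes tested in each class of mean CPM, stacked by direction, with a minimum of 14% at 10 to 30 CPM.

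The response also shifted a sizeable part of the reads. The 3543 higher DEGs held 11.1 to 11.3% of all counts in the HT libraries and 4.32% in each NT library. The 6092 lower DEGs held 6.04 to 6.09% at HT and 16.8 to 17.2% at NT. The shape of the libraries changed little in comparison. The 10 most abundant genes held 3.72 to 3.85% of counts at HT and 3.67 to 3.69% at NT, and genes at 1 CPM or more numbered 35338 to 35500 at HT and 36073 to 36180 at NT. The SD of log2 CPM over the genes tested was 2.06 to 2.08 at HT and 2.01 to 2.02 at NT. The DEG shares are a description, since the DEGs were chosen on these libraries. HT and NT did not overlap in the other 3 measures, but they did in the share of the 1000 most abundant genes (28.6 to 28.8% at HT and 28.4 to 28.9% at NT) and in the number of genes at 100 CPM or more (1493 to 1546 at HT and 1531 to 1585 at NT).

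**Figure D3:**
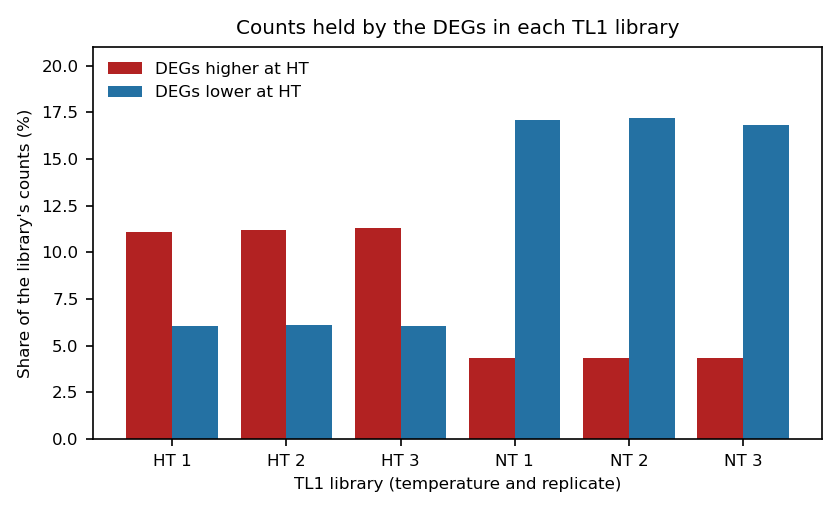
Share of each TL1 library's counts (y axis, %) held by the 3543 DEGs higher at HT (red) and the 6092 DEGs lower at HT (blue), in the 3 HT and then the 3 NT libraries. Red bars reach 11.1 to 11.3% at HT and 4.32% at NT, and blue bars 6.04 to 6.09% at HT and 16.8 to 17.2% at NT.

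In reads, the largest single gain was that of Glyma.07G132000, with 3520, 3920 and 4000 CPM in the HT libraries, against 806, 821 and 740 CPM in the NT libraries (log2 fold change 2.27, standard error 0.045, adjusted p = 1.09e-25 in edgeR). The largest loss was that of Glyma.08G200000, with 392, 376 and 402 CPM at HT, against 1850, 1910 and 1790 CPM at NT (log2 fold change -2.25, standard error 0.040, adjusted p = 7.67e-27). Both genes were picked after their values were seen, and neither has a name in the sources used here. A gain of 100 CPM or more was found for 118 DEGs and a loss of that size for 213.

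Annotation could be read for 578 genes only, of which 566 were tested and 468 of these carry a name. These are genes that the study called different between *GmMYB21a-OE2* and TL1 at HT, so they were chosen partly on the same HT libraries of TL1. Of the 566 tested, 468 were chosen as higher in *GmMYB21a-OE2*, of which 24 were higher and 209 lower at HT in TL1 (44.7% lower). Of the 98 chosen as lower, 28 were higher and 40 lower. The shares in the named lists that follow are to be read beside these as well as beside the 14.7% of all genes, and the lists are not independent evidence of a direction.

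The DEGs with a name and the largest rises do not belong to a single list. *CIF1* (Glyma.13G201100), whose *Arabidopsis* counterpart encodes a peptide that directs the sealing of the Casparian strip in roots, had 4.80, 4.96 and 5.64 CPM in the HT libraries, against 0.899, 0.900 and 0.838 CPM in the NT libraries. This is a log2 fold change of 2.54, with a standard error of 0.20 and an adjusted p of 2.17e-12 in edgeR. *FT-INTERACTING PROTEIN 1* (Glyma.14G098500), in *Arabidopsis* a carrier of the florigen FT, had 7.74, 5.24 and 6.27 CPM at HT, against 1.60, 0.930 and 0.869 CPM at NT (log2 fold change 2.48, standard error 0.21, adjusted p = 1.27e-11). Every HT library lay above every NT library, but the rule that named the largest rises and falls required this.

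Some rises started from very low levels. The gene annotated as Dynamin-related protein 1C (Glyma.05G069150), a membrane-remodelling GTPase, had 2.49, 3.47 and 2.91 CPM at HT, against 0.253, 0.240 and 0.497 CPM at NT (log2 fold change 3.16, standard error 0.30, adjusted p = 2.05e-10 in edgeR). *MEI2-like 4* (Glyma.18G281451), of a family of RNA-binding proteins of meiosis and meristems, had 1.14, 1.06 and 1.20 CPM at HT, against 0.197, 0.180 and 0.0931 CPM at NT (2.82, standard error 0.43). The same rule required that the libraries of the 2 temperatures do not overlap. The new gene DD_newGene_2388, annotated as a cytosolic phosphoglucomutase, which interconverts the phosphates of glucose, reached a log2 fold change of 2.64 (standard error 0.23). Another 5 named genes rose by 1.53 to 2.23 on the log2 scale. They were a translocator protein homolog (Glyma.03G213300, 2.23), the receptor-like protein *EIX2* (Glyma.16G185200, 2.08), fasciclin-like arabinogalactan protein 12 (Glyma.05G161900, 2.03), *Laccase-7* (Glyma.03G073776, 1.85) and the immune receptor *RPM1* (Glyma.08G319300, 1.53). *EIX2* is uncertain, since its NT libraries had 0.618, 0.570 and 0 CPM and DESeq2 gave it an adjusted p of 0.126.

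By reads gained, *NCED1* and *ERF060* had the largest gains among the DEGs with a name. *NCED1* encodes the rate-limiting dioxygenase of that pathway. One copy (Glyma.08G176300) had 30.5, 28.8 and 27.1 CPM at HT, against 9.72, 12.1 and 12.1 CPM at NT (log2 fold change 1.35, standard error 0.085, adjusted p = 2.31e-14 in edgeR). The other (Glyma.15G250100) had 20.3, 20.1 and 19.2 CPM at HT, against 7.08, 8.28 and 8.66 CPM at NT (1.31, standard error 0.092). The transcription factor gene *ERF060* (Glyma.08G137600) had 25.7, 27.0 and 24.5 CPM at HT, against 10, 10.6 and 12 CPM at NT (1.25, standard error 0.083). None of the 3 overlapped between temperatures, nor did 73.4% of all genes tested. The *NCED1* copies may share reads.

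Among the DEGs with a name, the largest falls included genes of the pollen wall and *WRKY* lists described below. *Isoleucine N-monooxygenase 2* (Glyma.11G197300), a cytochrome P450 that in *Lotus japonicus* starts the synthesis of cyanogenic glucosides, had 3, 0 and 0 counts at HT, against 278, 226 and 197 counts at NT. It was at least 82.9-fold lower at HT, with 3 counts per library as the floor. *Sugar transport protein 10* (Glyma.09G284200), a hexose carrier of the pollen tube in *Arabidopsis*, had 1.40, 1.04 and 1.41 CPM at HT, against 17.7, 18.6 and 18.2 CPM at NT (log2 fold change -3.83, standard error 0.13, adjusted p = 1.49e-20 in edgeR). A germin-like protein gene (Glyma.19G102700), of a family of secreted proteins, had 1.54, 1.59 and 1.92 CPM at HT, against 22.7, 20.5 and 21.3 CPM at NT (-3.68, standard error 0.12). That the HT libraries of all 3 genes lay below the NT libraries was required by the rule that named them. The lipid-transfer protein gene *DIR1* (Glyma.08G324100), of systemic defence signalling, fell by 3.06 on the log2 scale, and annexin *RJ4* (Glyma.11G153800), of a family of calcium-dependent membrane proteins, fell by 3.03.

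By reads lost, *SEOB* (Glyma.20G204500) had the largest loss among the DEGs with a name. It encodes a sieve element occlusion protein of the phloem. It had 86.6, 83.6 and 70 CPM at HT, against 561, 539 and 518 CPM at NT (log2 fold change -2.75, standard error 0.057, adjusted p = 2.56e-25 in edgeR). *PR5* (Glyma.14G077333), a pathogenesis-related protein, had 17.2, 21.1 and 13.8 CPM at HT, against 84.9, 105 and 78.1 CPM at NT (-2.36, standard error 0.099). Smaller falls were those of a second *DIR1* gene (Glyma.04G138700, -1.30), the senescence protease *SAG39* (Glyma.11G144900, -1.06) and *AGP1* (Glyma.13G042500, -1.01), an arabinogalactan protein. The last lies at the fold threshold and passed it in some fits only.

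**Figure D4:**
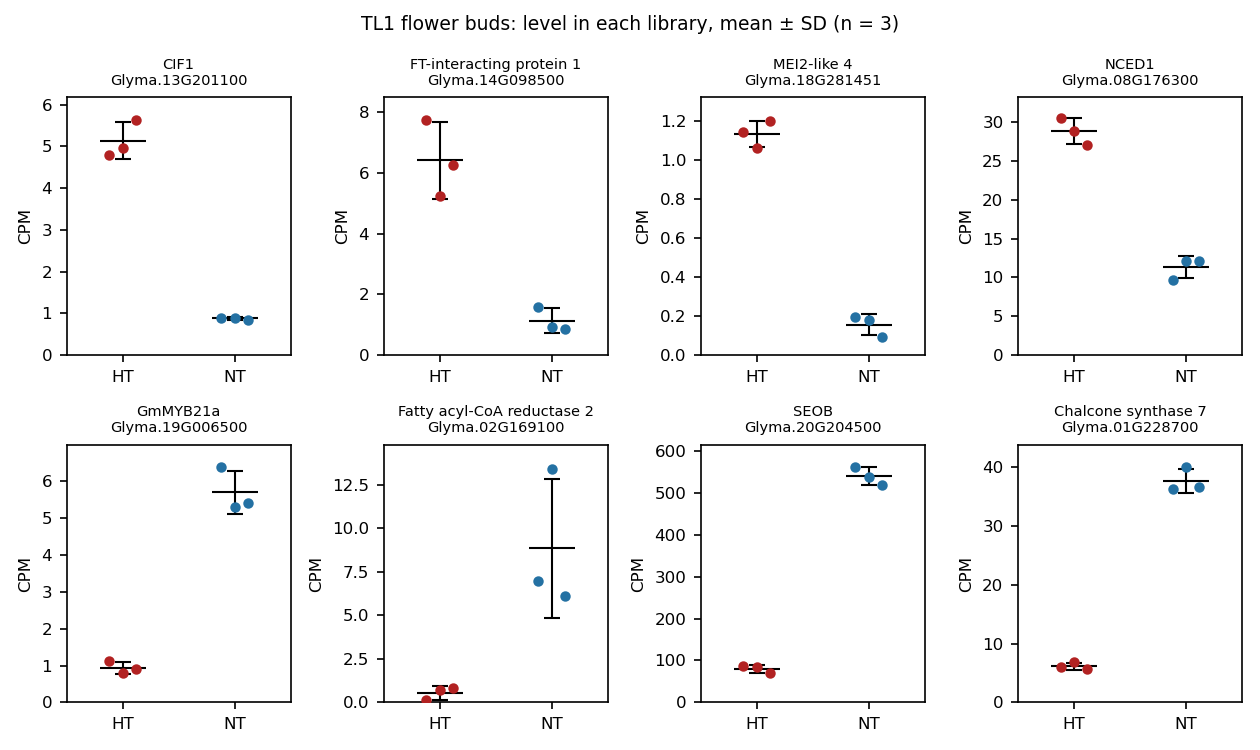
CPM (y axis, from 0) of 8 named genes in each TL1 library (points), with the mean and SD of 3 libraries, HT left of NT. The upper row holds 4 genes higher at HT (*CIF1*, *FT-INTERACTING PROTEIN 1*, *MEI2-like 4* and *NCED1*) and the lower row 4 genes lower at HT, with *SEOB* at 70 to 86.6 CPM at HT and 518 to 561 CPM at NT. The points of HT and NT overlap in no panel, as for 73.4% of all genes tested. For genes named as largest rises or falls, the naming rule required this.

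A small set of genes was present at one temperature and nearly absent at the other. With at least 20 counts in each library of one temperature and no more than 3 in any of the other, 9 genes were present at HT only and 26 at NT only. Of the 9, 6 are new genes that the authors assembled, as are 2 of the 26. DD_newGene_2426, annotated as the probable methyltransferase PMT26, had 228, 259 and 251 counts at HT, against 0, 2 and 0 at NT, and was at least 76.5-fold higher. DD_newGene_2427, annotated as a cytosolic tyrosine-tRNA ligase, had 37, 32 and 43 counts at HT, against 0 in each NT library (at least 11.7-fold higher). Both had at most 5 counts in every *GmMYB21a-OE2* library, whatever the temperature. DD_newGene_1768, which has no name, had 54, 71 and 70 counts at HT, against 0 in each NT library (at least 20.2-fold higher), and repeated this pattern in *GmMYB21a-OE2* with 85 to 93 counts at HT and 0 at NT. Among the genes present at NT only, Glyma.02G187850 had 0, 2 and 0 counts at HT, against 132, 128 and 128 at NT (at least 46.1-fold lower), and DD_newGene_384 had 0 at HT, against 101, 89 and 75 at NT (at least 31.4-fold lower). Neither has a name, and both had at most 7 counts in every *GmMYB21a-OE2* library, at NT as well as at HT. The same pattern, with the same limits on counts, was found in *GmMYB21a-OE2* for 4 of the 9 and for 5 of the 26. Of the 26, 16 had more than 3 counts in an HT library of *GmMYB21a-OE2*. Some missed the limit narrowly, such as Glyma.13G282200 with 0 to 4 counts at HT and 21 to 41 at NT. Others missed it clearly, such as Glyma.11G197300 with 22 to 42 counts at HT.

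*GmMYB21a* itself was lower at HT in TL1. It was taken to be Glyma.19G006500, whose annotated protein name matches the earlier name of *GmMYB21a*, although no file pairs the identifier with it directly. It encodes an R2R3-type MYB transcription factor whose *Arabidopsis* relatives act in stamens. It had 1.12, 0.809 and 0.900 CPM in the HT libraries, against 6.38, 5.31 and 5.40 CPM in the NT libraries (log2 fold change -2.60, standard error 0.19, adjusted p = 9.90e-13 in edgeR). Its HT and NT libraries did not overlap, as for 73.4% of all genes tested. In *GmMYB21a-OE2* its log2 fold change was -1.83, but counts in that line may include reads of the transgene. The paper states that *GmMYB21a* was induced by HT in a restorer line. Its qRT-PCR under HT compared restorer lines other than TL1, and the reason for the different direction here was not tested.

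All 15 genes of the pollen wall and tapetum list were lower at HT, against 14.7% of all genes tested. Of the annotated genes chosen as higher in *GmMYB21a-OE2*, to which 14 of the 15 belong, 44.7% were lower. Their median log2 fold change was -2.28 (range -3.99 to -1.04), against 0.0012 over all genes. *Fatty acyl-CoA reductase 2* (Glyma.02G169100), which in *Arabidopsis* makes the fatty alcohols of sporopollenin, had 0.112, 0.708 and 0.840 CPM at HT, against 7.0, 13.4 and 6.12 CPM at NT (log2 fold change -3.99, standard error 0.31, adjusted p = 3.44e-12 in edgeR). Both genes annotated as the aldehyde oxidase *GLOX* fell, with log2 fold changes of -3.78 (Glyma.06G175600) and -3.60 (Glyma.03G244200). *Glucan endo-1,3-beta-glucosidase A6* (Glyma.13G173200), an anther enzyme thought to free the microspores from their callose wall, had 0.586, 0.683 and 0.600 CPM at HT, against 4.5, 5.85 and 3.69 CPM at NT (-2.90, standard error 0.23). The sporopollenin polyketide synthases *A* and *B* (Glyma.01G073600 and Glyma.11G097900) changed by -2.80 and -2.28, and *CYP704B1* (Glyma.07G043300), a fatty acid hydroxylase of the same pathway, by -2.69. The tapetal dehydrogenase *ATA1* (Glyma.18G278500) changed by -2.51, and *bHLH10* (Glyma.08G089100), a tapetal transcription factor, by -1.81.

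Summed over this list, the level was 48.1, 49.5 and 48.9 CPM in the HT libraries, against 186, 240 and 171 CPM in the NT libraries. NT replicate 2 was the highest library for the sum and for *GLOX* (32.3 CPM in Glyma.06G175600, against 17.6 and 12.9 CPM in the other NT libraries). Without it all 15 genes were still lower, with a median of -2.05. In bulk buds, fewer tapetum or pollen cells and less RNA per cell cannot be told apart.

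Genes of late pollen and the pollen tube were lower as well, 13 of 15, with a median log2 fold change of -1.81. Of the 15, 14 were chosen as lower in *GmMYB21a-OE2* at HT, where 40.8% of such genes were lower in TL1. A pectinesterase of the inhibitor 21 type (Glyma.10G009000), which modifies wall pectin, had 3.43, 2.93 and 3.0 CPM at HT, against 19.9, 17.9 and 14.3 CPM at NT (log2 fold change -2.48, standard error 0.13, adjusted p = 1.40e-16 in edgeR). The pollen allergen-type gene *Olee1-like* (Glyma.15G082300) had 4.24, 5.69 and 5.55 CPM at HT, against 30.9, 26.1 and 28.4 CPM at NT (-2.46, standard error 0.10). A pectate lyase (Glyma.18G255900) had 5.08, 3.69 and 3.93 CPM at HT, against 22.2, 19.8 and 21.4 CPM at NT (-2.32, standard error 0.11). A polygalacturonase gene (Glyma.14G006100), for the breakdown of pectin, had 1.98, 1.19 and 2.19 CPM at HT, against 8.12, 8.04 and 9.59 CPM at NT (-2.28, standard error 0.17). None of the 4 overlapped between temperatures, nor did 73.4% of all genes tested. The 2 members that did not pass, *COBRA-like 10* (Glyma.12G213400) and a *Syntaxin-124* gene (Glyma.13G245800), had -0.92 and -0.72. In *GmMYB21a-OE2* 14 of the 15 were lower and 1, the receptor kinase gene *ANXUR2* (Glyma.18G271500), was higher.

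Flavonoid genes were lower in 7 of 9 cases, with a median of -2.55. All 9 were chosen as higher in *GmMYB21a-OE2*, and 44.7% of such genes were lower in TL1. *Chalcone synthase 7* (Glyma.01G228700), an enzyme of the first committed step, had 5.98, 6.80 and 5.64 CPM at HT, against 36.2, 40 and 36.6 CPM at NT (log2 fold change -2.61, standard error 0.084, adjusted p = 4.43e-21 in edgeR). Genes annotated as chalcone synthase 5 on chromosome 8, Glyma.08G110701, Glyma.08G110340 and Glyma.08G109200, had -2.60, -2.59 and -2.58, and they are close copies among which reads may be split. The flavanone 3-dioxygenase gene (Glyma.01G166200), for the following steps toward flavonols, had -1.38. *MYB111* (Glyma.16G023000), a regulator of flavonol synthesis, had -0.60 and did not pass (adjusted p = 0.155).

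In TL1 no member of the *WRKY* list or of the chaperone and heat stress factor list was called higher. Of 13 *WRKY* genes, 9 were lower and 0 higher (median -1.72). A *WRKY40* gene (Glyma.17G222300), in *Arabidopsis* a regulator of defence and abscisic acid responses, had 0.363, 0.278 and 0.540 CPM at HT, against 3.57, 2.58 and 3.97 CPM at NT (log2 fold change -3.11, standard error 0.28, adjusted p = 8.23e-11 in edgeR). Its neighbour Glyma.17G222500, also annotated as *WRKY40*, had -3.03, and the *WRKY33* gene Glyma.01G128100 had -2.77. The *WRKY53* gene Glyma.08G021900, of a family member tied to leaf senescence in *Arabidopsis*, had 2.99, 2.61 and 3.63 CPM at HT, against 19.4, 18.1 and 19.6 CPM at NT (-2.64, standard error 0.11). Of the 7 named genes of chaperones and heat stress factors, 4 were lower and 0 higher (median -1.21). *Derlin-1* (Glyma.06G317800), of protein degradation at the endoplasmic reticulum, had 0.698, 0.354 and 0.450 CPM at HT, against 4.41, 4.08 and 3.51 CPM at NT (-3.0, standard error 0.25). A *dnaJ 20* chaperone gene (Glyma.05G119200) had -1.96 and *Heat stress transcription factor B-4* (Glyma.14G083700) had -1.48. The other gene annotated as *dnaJ 20* (Glyma.08G074200) was not called, at 0.018. *Heat stress transcription factor C-1* (Glyma.07G086400, -0.46) and *FKBP62* (Glyma.08G168700, -0.13) were not called either. *Protein disulfide-isomerase 5-4* (Glyma.12G213100), for the folding of secreted proteins, had -1.21, and -0.98 without NT replicate 2, below the fold threshold. These 7 and the 13 *WRKY* genes were chosen as higher in *GmMYB21a-OE2*. Of all such genes, 44.7% were lower and 5.13% higher in TL1, so the counts of the 7 are near these shares. The 7 are not the chaperone family of soybean, whose other members carry no name here.

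Among U-box ubiquitin ligases, 8 of 13 were lower and 1 was higher (median -1.04). The U-box, ethylene response factor and ZAT lists hold only genes chosen as higher in *GmMYB21a-OE2*. Of all such genes, 44.7% were lower and 5.13% higher in TL1. *U-box domain-containing protein 21* (Glyma.02G242900) had 0.251, 0.101 and 0.0900 CPM at HT, against 1.71, 1.74 and 0.931 CPM at NT (log2 fold change -3.28, standard error 0.44, adjusted p = 1.71e-07 in edgeR), and the change was -3.88 without HT replicate 1. The *PUB22* genes Glyma.03G202600 and Glyma.19G200200 had -1.86 and -1.49, and a further U-box 21 gene (Glyma.09G172100) had -1.50. Of 19 ethylene response factors tested, 2 were higher, 4 lower and 13 not called (median -0.17). The 2 *ERF017* genes Glyma.17G047300 and Glyma.13G112400 had -2.14 and -1.44, and *RAP2-3* (Glyma.02G016100) had -1.63. *ERF014* (Glyma.06G111300), at 0.150 to 0.455 CPM at HT and 0.534 to 0.714 CPM at NT, had -1.26 (adjusted p = 0.0165), and it was not called in DESeq2 or without HT replicate 1, HT replicate 3 or NT replicate 3 (adjusted p of 0.0549 to 0.0827). Without HT replicate 2 its value was -1.97. Zinc finger genes of the ZAT type moved both ways, with 1 of 7 higher and 1 lower. Both are *ZAT11* genes, Glyma.03G173300 at -2.01 and Glyma.13G133000 at 1.77, whose levels were under 1 CPM at HT. The call of Glyma.13G133000 was lost without NT replicate 3 (1.21, adjusted p = 0.0719), and its value was 2.95 without NT replicate 2. *ZAT10* (Glyma.17G236200), a repressor of stress responses, had 11.4, 10.3 and 10.8 CPM at HT, against 19, 17.2 and 18.3 CPM at NT (-0.75, below the fold threshold). Its libraries did not overlap, as for 73.4% of all genes tested. A further *ZAT10* gene (Glyma.04G044900) had -0.48. The other *ZAT10* genes, Glyma.14G088300 and Glyma.20G133200, went the other way, at 0.29 and 0.16, and so did a *ZAT11* gene (Glyma.13G133100, 0.42). None of these passed the fold threshold.

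Genes of calcium signalling were lower in 5 of 11 cases and higher in 1 (median -0.88). Of all 566 annotated genes tested, 44.0% were lower and 9.19% higher, so these counts are near that share. *KRP1* (Glyma.12G142900), a calcium-binding protein, had 0.922, 0.961 and 1.41 CPM at HT, against 5.76, 5.43 and 5.15 CPM at NT (log2 fold change -2.32, standard error 0.19, adjusted p = 1.17e-11 in edgeR), while *CML19* (Glyma.04G136600) had -2.02 and *PBP1* (Glyma.13G283600) had -1.39. The gene of the calcium-binding allergen Ole e 8 type (Glyma.08G053500) had 10.2, 11 and 9.69 CPM at HT, against 25, 26.7 and 25.5 CPM at NT (-1.32, standard error 0.080). The abscisic acid list was split, with 3 of 10 higher and 2 lower (median -0.17). All 10 were chosen as higher in *GmMYB21a-OE2*, and of all such genes 44.7% were lower and 5.13% higher in TL1. Besides both *NCED1* copies, *XERICO* (Glyma.11G243400), which in *Arabidopsis* raises abscisic acid, was higher at 1.41. Abscisate beta-glucosyltransferase (Glyma.07G215500), which conjugates the hormone, had -2.06, and a protein phosphatase 2C (Glyma.14G195200) had -1.40.

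The lists in this paragraph are to be read beside all 566 annotated genes tested, of which 44.0% were lower and 9.19% higher. Auxin-response genes were lower in 6 of 13 cases and higher in 2 (median -0.48). Neighbouring *SAUR32* genes, Glyma.10G055900 and Glyma.10G056000, had -1.93 (-2.99 without HT replicate 2) and -1.36, and *GH3.1* (Glyma.02G125600), which conjugates auxin to amino acids, had -1.31. *SAUR36* (Glyma.03G029600) had -1.22. Of 23 cell wall genes, 8 were lower and 1 higher (median -0.61), the higher one being the fasciclin-like protein named above. The *AGP41* genes Glyma.13G041100 and Glyma.14G161000 had -2.21 and -1.68, and an *AGP1* gene (Glyma.15G055800) had -1.85. Of 12 MYB factors, 6 were lower and 1 higher (median -0.85). Besides *GmMYB21a*, the largest falls were those of *MYB13* (Glyma.12G105400, -2.31), *MYB36* (Glyma.01G004900, -2.09) and *MYB4* (Glyma.02G005600, -1.72). *MYB111* stands in this list and in the flavonoid list.

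**Figure D5:**
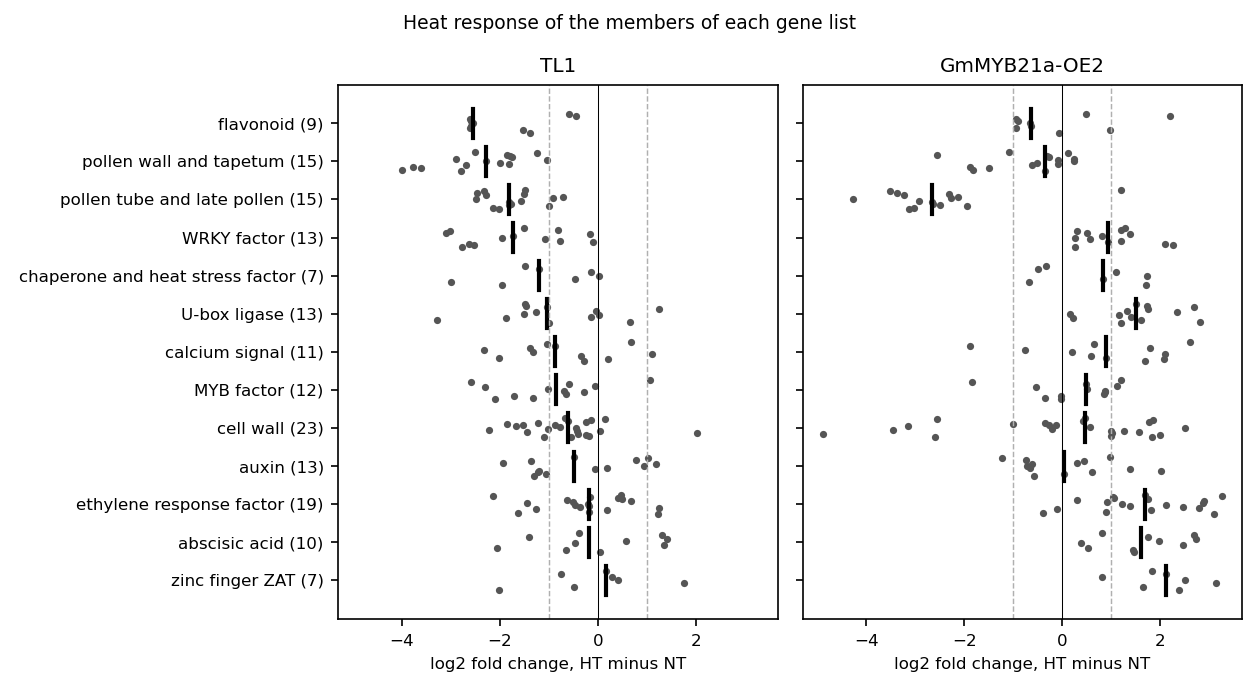
Log2 fold change of HT over NT (x axis) for each tested member (points) and the median (bar) of 13 gene lists, in TL1 (left) and *GmMYB21a-OE2* (right), with the number of members tested in TL1. Dashed lines mark a 2-fold change. Medians run from -2.55 (flavonoid) to 0.17 (zinc finger ZAT) in TL1. The members were chosen for a difference between the lines at HT, so the contrast of the panels is partly fixed by that choice.

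Over all genes the heat response of TL1 resembled that of *GmMYB21a-OE2*, which was measured on 6 other libraries. In *GmMYB21a-OE2* 10376 of 41717 genes were DEGs (24.9%), 4426 higher and 5950 lower. The log2 fold changes of TL1 and *GmMYB21a-OE2* had a Pearson's r of 0.851 across 40950 genes, which are not independent replicates. Of the genes higher in TL1, 2507 (70.8%) were also called higher in *GmMYB21a-OE2* and 6 were called lower. Of the genes lower in TL1, 4445 (73.0%) were also called lower and 80 were called higher. The median log2 fold change of the higher TL1 DEGs was 1.33 in TL1 and 1.27 in *GmMYB21a-OE2*, and that of the lower ones was -1.53 and -1.47.

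The heat change itself differed between the lines for 5317 of 42839 genes (12.4%, line by temperature interaction in edgeR, adjusted p-value below 0.05), with a positive interaction for 5.5% and a negative one for 6.91%. Among the TL1 DEGs, 376 of the 3543 higher and 1189 of the 6092 lower genes had such a difference. The change was smaller in *GmMYB21a-OE2* for 269 of the 376 and for 700 of the 1189, genes that were selected on the size of their TL1 change. *SEOB* had a log2 fold change of -2.75 in TL1 and 0.05 in *GmMYB21a-OE2* (interaction 2.80, adjusted p = 9.2e-13). The pollen wall and tapetum list had a median of -2.28 in TL1 and -0.35 in *GmMYB21a-OE2*, where 5 of 15 members were lower. The pollen tube list had -1.81 in TL1 and -2.66 in *GmMYB21a-OE2*, and the *WRKY* list -1.72 and 0.93. *SEOB* and the members of these lists were chosen for a line difference at HT. The contrasts between the lines are therefore partly fixed by that choice, and nothing is read from them.

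The response was spread over the genome. Between 21.3 and 24.8% of the genes tested were DEGs on each of the 20 chromosomes, and 31.7 to 39.4% of those were higher. The authors' new genes differed from this, with 37.5% of 757 called and 81.0% of the called genes higher (230 higher, 54 lower). They held 0.617 to 0.661% of all counts at HT and 0.413 to 0.435% at NT. Genes next to each other in identifier order were called in the same direction more often than genes at large. The next tested gene was also higher after 14.5% of the higher DEGs, against 8.13% of all genes with a chromosome, and also lower after 19.9% of the lower DEGs, against 14.9%. The longest run held 9 lower genes, on chromosome 5. Across 40542 such pairs the log2 fold changes correlated weakly (Pearson's r 0.0978), and neighbours can be copies that share reads.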

How the data were processed

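RNA-seq libraries of flower buds were analysed from TL1 at HT and NT (3 each), with *GmMYB21a-OE2* at HT and NT (3 each) for comparison. Per the labels, RNA was extracted with an RNeasy kit and libraries were made with a SMARTER mRNA-seq kit. The authors trimmed and filtered the reads and deposited 1 table with the raw count of reads for each gene in each library. The submitters' processing notes name StringTie 2.1.3b, and the aligner, genome build and use of strand are not given in the sources used here, so overlapping, antisense and copied genes can share reads.

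CPM and fold changes were computed from the deposited counts in edgeR 4.0.16 (R 4.3.3), with TMM library sizes and filterByExpr at its defaults. The 6 TL1 libraries were fitted with the quasi-likelihood test (glmQLFit, glmQLFTest) and Benjamini-Hochberg adjustment over 41422 genes. DEGs changed by 1 or more on the log2 scale with an adjusted p-value below 0.05. *GmMYB21a-OE2* was fitted likewise, and the interaction was fitted to all 12 libraries. All adjusted p-values come from these edgeR fits unless DESeq2 (1.42.0) is named. Where a group had at most 3 counts in each library, a lower bound of the fold was computed against a floor of 3 counts per library. The chi-square per degree of freedom between replicates was 2.71 to 4.82, so no library was a repeat of another, and the biological coefficient of variation was 0.062. The study gives its libraries as independent biological replicates. Intervals cover counting error only.

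Total counts were at least 32058303 per library. On simulated counts with 200 genes changed 4-fold, the TL1 fit (41364 genes tested) recovered 200 with 0 false calls. The interaction fit recovered 200 with 4 false calls. The changed genes were at 1 CPM or more, as many raised as lowered, with a common dispersion for all genes. The data differ in each of these points, so this checks the procedure only and gives no error rate for the data. Names come from the Swiss-Prot column of the study's annotation table (the NR column where that was empty), of which 578 rows were readable. The RefSeq gene table of assembly Glycine_max_v4.0 matched 0 of the identifiers. Genes were named by rule, as the 12 largest rises and falls among DEGs with a name, no overlap and at least 1 CPM, the 2 largest of any annotation, the 6 largest gains and losses of CPM among DEGs with a name, *GmMYB21a*, the 4 largest changes of each of 13 lists, and the 2 highest genes present at one temperature only. Other list members are examples. The members, lists and rules were chosen with earlier results of these data known. Alternatives were other normalizations, DESeq2, no filter, all 12 libraries in one fit, Glyma identifiers only, a replicate block, other thresholds, and each library left out.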

Additional observations from a re-analysis of the deposited data

Results flagged for a closer look

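Of the 78 genes named by the rule, 67 had a heat change that differed between the lines (edgeR's test of the interaction over all 12 libraries, adjusted p-value below 0.05), against 12.4% of all genes tested. All values here are log2 interactions, the heat change of *GmMYB21a-OE2* minus that of TL1. Most of these genes were chosen by the study for a line difference at HT, so nothing is read from their number. The interaction was positive for 53 and negative for 14.

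In pollen wall and tapetum genes it was 2.19 (Glyma.02G169100), 1.90 (Glyma.06G175600), 2.12 (Glyma.03G244200) and 3.15 (Glyma.13G173200), and in pollen tube genes -1.80 (Glyma.10G009000), -0.90 (Glyma.15G082300), -1.18 (Glyma.18G255900) and -0.96 (Glyma.14G006100). In chalcone synthase genes it was 1.68 (Glyma.01G228700), 1.66 (Glyma.08G110701), 1.70 (Glyma.08G110340) and 1.95 (Glyma.08G109200). In *WRKY* genes it was 3.62 (Glyma.17G222300), 3.34 (Glyma.17G222500), 3.03 (Glyma.01G128100) and 4.75 (Glyma.08G021900), and in genes of chaperones and heat factors 2.32 (Glyma.06G317800), 3.68 (Glyma.05G119200) and 1.15 (Glyma.14G083700).

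In ethylene response factors it was 5.42 (Glyma.17G047300), 4.31 (Glyma.13G112400), 1.55 (Glyma.08G137600) and 1.25 (Glyma.02G016100). In U-box ligases it was 4.89 (Glyma.02G242900), 2.08 (Glyma.03G202600), 3.0 (Glyma.19G200200) and 1.65 (Glyma.09G172100), and in ZAT genes 4.40 (Glyma.03G173300), 2.87 (Glyma.17G236200) and 2.14 (Glyma.04G044900). In calcium genes it was 1.55 (Glyma.12G142900), 2.91 (Glyma.04G136600), 3.18 (Glyma.13G283600) and 1.53 (Glyma.08G053500). In abscisic acid genes it was 1.11 and 1.38 (*NCED1*, Glyma.08G176300 and Glyma.15G250100), 1.32 (Glyma.11G243400), 2.59 (Glyma.07G215500) and 3.15 (Glyma.14G195200). In auxin genes it was 2.24 (Glyma.10G055900), 1.82 (Glyma.10G056000), 0.74 (Glyma.02G125600) and 1.84 (Glyma.03G029600). In cell wall genes it was -1.24 (Glyma.13G041100), -1.47 (Glyma.14G161000), 0.86 (Glyma.15G055800) and 0.81 (Glyma.13G042500). In MYB genes it was 0.77 (*GmMYB21a*), 1.78 (Glyma.12G105400), 2.08 (Glyma.01G004900) and 1.70 (Glyma.02G005600). The value of *GmMYB21a* may include reads of the transgene in *GmMYB21a-OE2*.

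Among the other named fallers it was 2.80 (*SEOB*), 3.18 and 1.29 (*DIR1*, Glyma.08G324100 and Glyma.04G138700), 0.95 (annexin, Glyma.11G153800), 0.70 (*PR5*), -1.46 (*SAG39*) and -1.32 (germin-like, Glyma.19G102700). Among the other named risers it was 1.43 (Glyma.03G213300), -3.13 (Glyma.05G069150), -1.21 (Glyma.14G098500), -3.50 (*Laccase-7*) and -0.84 (*RPM1*). In 4 genes a group had at most 3 counts in each library, so the fitted values of -10.75 (DD_newGene_2426), -9.36 (*EIX2*), 3.87 (Glyma.11G197300) and 6.68 (Glyma.02G187850) depend on the prior count and give no size.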

How the results depend on the processing

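More genes were lower than higher in every fit, but the size of this imbalance depended on the fold threshold. Under other normalizations, DESeq2, no low-count filter, a joint fit of all 12 libraries, Glyma identifiers only and each library left out, DEGs numbered 9334 to 10381. In these fits 0 of the 9635 changed sign. The 9635 had already passed the fold threshold on the same libraries, so a change of sign was unlikely from the start. All fits but the one on Glyma identifiers called 7862 of the 9635. Without each library in turn DEGs numbered 9693 to 9890, of which 3497 to 3619 were higher and 6105 to 6379 lower, and 7887 of the 9635 were called every time. The share of higher DEGs was 35.4 to 37.2% without each library, 37.7% with total counts alone and 35.5% with DESeq2, against 36.8%. Thresholds moved the counts most. Without a fold threshold there were 29476 genes, 14709 higher and 14767 lower (49.9% higher), and at a 4-fold change or more there were 2145, 518 higher and 1627 lower (24.1%). The cause of these shifts is the threshold itself, and that of the smaller ones was not tested.

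Replicate numbers did not pair the libraries, since deviations of libraries with the same number correlated at -0.0008, -0.0006 and 0.027. With the replicate block there were 9604 DEGs (3508 higher, 6096 lower) and 4751 interaction genes, against 9635 and 5317. Interaction genes numbered 3557 to 6768 with each of the 12 libraries left out. Of 1087 values of the 78 named genes, 1076 kept their call, 0 changed sign and 11 lost the call. These were *EIX2* in DESeq2 (2.11, adjusted p = 0.126), *AGP1* (Glyma.13G042500) in 4 fits at -0.957 to -0.996, *ERF014* (Glyma.06G111300) in 4 fits at -0.998 to -1.29, *PDI5-4* (Glyma.12G213100) without NT replicate 2 (-0.98), and *ZAT11* (Glyma.13G133000) without NT replicate 3 (1.21, adjusted p = 0.0719). List counts, refitted after the data were seen, kept 14 or 15 of 15 lower pollen wall genes and 12 to 14 of 15 lower pollen tube genes.

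Depth limits the genes of a few counts. Below 0.3 CPM the median standard error of a DEG was 0.63 on the log2 scale, and a fold there is coarse. Names cover 468 of the genes tested, from a set chosen for a line difference, so the families of the strongest risers and fallers among the other genes were not analysed here.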
